A study of Mus musculus with 8 samples.

Results

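The 37 genes described here are interferon-stimulated genes and genes of MHC class I antigen presentation, taken by their symbols from a list of transcription factors, antiviral effectors, RNA sensors and antigen presentation genes. Of these, 35 had at least 1 probe set of their own on the array, among 18192 genes that did, and together they had 66 probe sets. Isg15 and Ifi44 had none and are named only. A probe set is a group of short probes that reads 1 transcript, and each gene was represented by its brightest probe set. Genes were tested where 2 or more arrays of the 8 lay above 73.5 units, the median of all signals pooled. This left 32 of the 35 members and 12015 genes in all, and Mx1, Dhx58 and Gbp3 were too dim to test.

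Gene expression was measured in v-erbA-transfected AML12 cells, with 1 µM retinoic acid (RA) or untreated, at 24 h and at 3 h, and in AML12 cells under those 4 conditions. Each of the 8 conditions had 1 array and none was replicated. AML12 is a mouse hepatocyte line from a mouse carrying a human TGF-alpha transgene, which both groups share, and v-erbA is a viral oncoprotein derived from the thyroid hormone receptor. The series asked which RA-responsive genes are expressed differently when v-erbA is present. The labels name no empty-vector control and do not say whether the v-erbA line was 1 clone, so the effect of v-erbA cannot be told apart from that of transfection or of cloning. The titles set the groups, although the descriptions of 3 of the 4 samples at 24 h give 3 h and the treatment field of the untreated AML12 sample at 3 h mentions RA. The v-erbA transcript was not analysed here.

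Interferons bind receptors at the cell surface and act through JAK kinases on STAT proteins, which with IRF9 enter the nucleus and bind a DNA element called the ISRE upstream of their target genes. Many of these genes block viral RNA, trap virions or sense foreign RNA. Another arm supplies the MHC class I pathway, in which peptides cut by the proteasome are carried into the endoplasmic reticulum by TAP and loaded with help from tapasin onto a heavy chain paired with beta-2 microglobulin. Hepatocytes carry receptors for type I interferons and respond to them.

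The following promoters, from RefSeq, belong to the 2 members that rose most in v-erbA cells and the 2 that fell most, among those with a promoter in the table used. The windows run 250 bases before to 50 bases after a transcription start in the mouse assembly GRCm38.p6, 5′ to 3′ on the strand of the gene, with matches to the ISRE motif in capitals. The motif searched was GAAA, any 2 bases and GAAA again, on both strands. Ifit2 has 2 annotated windows.
Ifit2, chr19:34550444-34550743, plus strand: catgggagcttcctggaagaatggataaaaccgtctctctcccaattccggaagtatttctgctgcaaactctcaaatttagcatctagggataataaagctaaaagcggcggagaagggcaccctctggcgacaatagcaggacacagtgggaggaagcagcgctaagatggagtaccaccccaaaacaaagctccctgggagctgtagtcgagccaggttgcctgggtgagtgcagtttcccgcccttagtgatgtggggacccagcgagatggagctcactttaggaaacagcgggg
Ifit2, chr19:34550838-34551137, plus strand: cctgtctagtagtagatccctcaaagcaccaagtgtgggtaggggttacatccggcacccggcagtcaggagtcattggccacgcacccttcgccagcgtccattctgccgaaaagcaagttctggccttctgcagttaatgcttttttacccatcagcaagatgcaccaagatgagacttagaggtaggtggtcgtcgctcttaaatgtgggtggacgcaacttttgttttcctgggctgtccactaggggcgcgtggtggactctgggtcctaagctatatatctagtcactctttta
Ifit3, chr19:34583279-34583578, plus strand: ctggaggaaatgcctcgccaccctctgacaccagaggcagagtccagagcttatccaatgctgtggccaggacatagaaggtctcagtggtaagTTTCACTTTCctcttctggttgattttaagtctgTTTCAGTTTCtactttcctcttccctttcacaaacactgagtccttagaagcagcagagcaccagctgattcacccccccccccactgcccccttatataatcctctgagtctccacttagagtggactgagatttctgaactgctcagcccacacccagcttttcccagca
Oasl2, chr5:114896684-114896983, plus strand: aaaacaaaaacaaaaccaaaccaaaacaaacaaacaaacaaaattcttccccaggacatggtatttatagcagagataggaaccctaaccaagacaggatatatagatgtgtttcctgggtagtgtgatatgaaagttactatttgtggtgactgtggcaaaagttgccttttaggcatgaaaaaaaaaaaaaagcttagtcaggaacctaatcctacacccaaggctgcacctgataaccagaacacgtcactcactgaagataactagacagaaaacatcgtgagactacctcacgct
Oas1a, chr5:120907476-120907775, minus strand: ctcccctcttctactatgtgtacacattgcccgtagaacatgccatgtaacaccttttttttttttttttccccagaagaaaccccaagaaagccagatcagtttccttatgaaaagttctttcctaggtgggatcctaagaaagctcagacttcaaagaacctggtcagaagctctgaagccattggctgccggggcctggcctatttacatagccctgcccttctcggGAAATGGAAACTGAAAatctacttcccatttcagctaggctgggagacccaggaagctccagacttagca
The windows of Ifit2 and Oasl2 hold no match. That of Ifit3 holds 2, which begin at positions -156 and -122 from the start, and that of Oas1a holds 2 that overlap each other, at -20 and -14. Among all members, 28 had a window and 9 had none. The motif was present in the windows of 13 of the 28 (46.4%), against 3.99% of 27025 genes, or in 13 of 35 member windows (37.1%) against 3.44% of all 32851 windows. It was found in 6 of the 16 members with a window that fell in v-erbA cells and in 1 of the 3 that rose. The other members that held it were Ddx58, Irf2, Rsad2 and Stat2, which did not pass between the lines, and Gbp3 and Isg15, which were not tested. The STAT motif TTCNNNGAA, whose 2 arms mirror each other so that both strands read alike, was in 7 of 28 members (25.0%), against 9.55% of genes, and in 7 of 35 member windows against 8.30% of all windows. No member window held GGTCA, any 5 bases and GGTCA again on either strand, a direct repeat that RA receptors are known to bind, which 0.0761% of all windows held. A match is a string of letters and was not tested for binding.

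Most of the interferon and antigen presentation genes were lower in v-erbA cells, and a few were higher. Of the 32 tested members 20 fell and 4 rose, by limma's test on log2(signal + 19.9) with Benjamini-Hochberg adjustment over all 12015 genes and a threshold of 0.05. Of all genes, 26.9% fell and 26.5% rose, so the count of falls stood above its background and the count of rises below it. The median difference over the 32 members was -0.38 on the log2 scale, and over all genes tested it was 0.01. All 20 that fell were lower in 4 of 4 matched pairs of arrays, and the 4 that rose were higher in 4 of 4. The pairs hold the same 8 arrays that gave the calls, so they are no separate support, and no share over all called genes is given. Signals of the lines did not overlap for 18 members that were lower and 3 that were higher, against 19.5% and 18.7% of all genes. The filter let in 5 members that were above the pooled median in 1 line only, and all 5 were called; of the 27 above it in both lines 16 fell and 3 rose. Without a filter 20 of 35 members fell and 4 rose, against 19.2% and 18.5% of 18192 genes. Where the mean over all arrays had to exceed the pooled median, 16 of 26 fell and 3 rose, against 28% and 27.4% of 11175 genes. Means are given with the SD over the 4 arrays of a line, which differ in treatment and time. The p-values set each effect against the scatter of these 8 single arrays around the fit, with no replicate of any condition. In RNA from whole cultures, fewer cells of a type and less RNA per cell cannot be told apart.

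**Figure D1:**
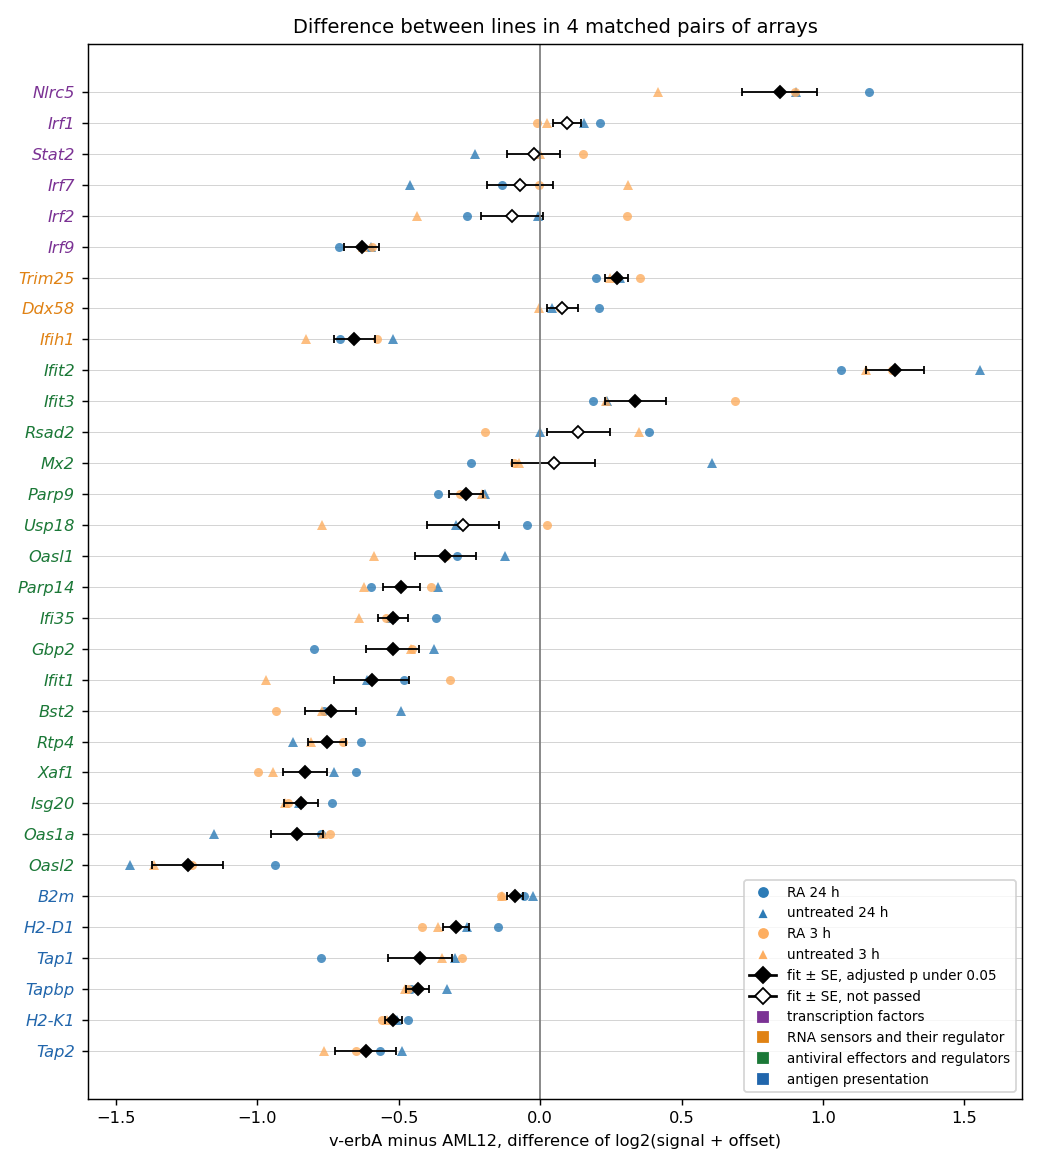
Difference between v-erbA and AML12 arrays for each of the 32 tested members, in log2 units, for the 4 matched pairs of arrays (circles for RA, triangles for untreated cells, 24 h in blue, 3 h in orange) and as the fit ± SE (diamonds, filled where the test was passed). Name colours give the role. Ifit2, at 1.25, lies at one end and Oasl2, at -1.25, at the other, and the pairs of the 20 members that fell all lie below 0.

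The antiviral effectors held both the largest fall and the largest rise among the members. Of the 21 listed, 19 had a probe set and 17 were tested, 12 of which fell and 2 rose, with a median difference of -0.52. Throughout, the values of a line are given in the order RA at 24 h, untreated at 24 h, RA at 3 h and untreated at 3 h. Oas1a encodes an enzyme that makes 2',5'-oligoadenylates to activate RNase L, and its signal was 78.8, 60.8, 98.2 and 92.8 units on the v-erbA arrays, against 149, 159.8, 178 and 172 units on the AML12 arrays. The lines did not overlap, and the 4 v-erbA arrays lay below the lowest AML12 array. The log2 difference was -0.86 ± 0.09 (SE), a 1.82-fold lower mean on the offset scale (limma adjusted p = 6.12e-05). Oasl2, a related gene, had 36.0, 19.9, 21.7 and 16.9 units on the v-erbA arrays, against 87.3, 89.0, 77.7 and 75.1 units on the AML12 arrays. Every v-erbA array was under the pooled median, so the fall is given as at least 1.09-fold (limma log2 difference -1.25 ± 0.13, adjusted p = 4.67e-05). Its neighbour Oasl1 averaged 54.2 ± 5.71 units in v-erbA cells and 73.6 ± 6.94 units in AML12 cells (SD, n = 4 each) and fell by a smaller amount, at -0.34 ± 0.11 (limma adjusted p = 0.0265), a call that was lost without the v-erbA RA array at 24 h or any 1 of the 4 arrays at 3 h (adjusted p between 0.0549 and 0.0937). Isg20, an exonuclease that degrades viral RNA, had 350.1, 437, 378 and 422 units on the v-erbA arrays, against 596, 805, 719 and 807 units on the AML12 arrays. All v-erbA arrays were lower, by 1.80-fold in the mean (-0.85 ± 0.06, limma adjusted p = 5.89e-06), and RA arrays were lower than untreated arrays in each line at each time.

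Several other effectors fell by similar amounts. Bst2, tetherin, which holds budding virions at the cell surface, had 700.4, 618, 564 and 619.8 units on the v-erbA arrays, against 1205, 877, 1095 and 1074 units on the AML12 arrays. The lines did not overlap, and the mean was 1.67-fold lower (limma -0.74 ± 0.09, adjusted p = 0.000135). Xaf1, an antagonist of the apoptosis inhibitor XIAP, had 274, 293, 227 and 214 units on the v-erbA arrays, against 442, 499, 474 and 432 units on the AML12 arrays. Rtp4, an interferon-induced chaperone of receptors, had 194, 185, 121 and 134 units on the v-erbA arrays, against 312, 355, 209 and 250.3 units on the AML12 arrays. Both were lower on all v-erbA arrays than on any AML12 array, by 1.78-fold and 1.69-fold (limma adjusted p = 3.30e-05 and 2.45e-05). A second Xaf1 probe set, however, differed by 0.20 in the other direction. The guanylate-binding protein Gbp2 had 73.8, 88.6, 90.3 and 81.8 units on the v-erbA arrays, against 143, 121, 131 and 119.8 units on the AML12 arrays. Ifi35 had 1219, 1209.9, 1275 and 1175 units on the v-erbA arrays, against 1581, 1753, 1871 and 1843 units on the AML12 arrays. Parp14 had 264, 278, 234 and 208 units on the v-erbA arrays, against 409.6, 362, 312 and 332 units on the AML12 arrays. None of these 3 overlapped between the lines. On the log2 scale Gbp2 (-0.52 ± 0.09), Ifi35 (-0.52 ± 0.05), Parp14 (-0.49 ± 0.06) and Parp9 (-0.26 ± 0.06) fell, with limma adjusted p between 4.61e-05 and 0.00544. Parp9 and Parp14 both belong to the ADP-ribosyltransferase family, and Parp9 overlapped between the lines by a single pair of arrays.

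The Ifit genes, which encode proteins that bind foreign RNA, moved in both directions. Ifit2 had 346, 306, 304 and 277 units on the v-erbA arrays, against 155, 91.1, 117 and 114 units on the AML12 arrays. No v-erbA array was below any AML12 array, and the mean was 2.39-fold higher (1.25 ± 0.10, limma adjusted p = 1.26e-05). Ifit3, the gene next to it, had 92.0, 98.3, 91.4 and 80.6 units on the v-erbA arrays, against 78.3, 80.4, 49.1 and 65.6 units on the AML12 arrays. The lowest v-erbA array lay just above the highest AML12 array. It rose by 1.26-fold (0.34 ± 0.11, limma adjusted p = 0.0254), and the call was lost without the RA array at 3 h of v-erbA cells (0.25, adjusted p = 0.0988) or of AML12 cells (0.25, adjusted p = 0.0869). Ifit1, separated from Ifit3 by 3 protein-coding genes, had 55.9, 51.0, 39.5 and 37.4 units on the v-erbA arrays, against 85.9, 88.5, 54.2 and 92.3 units on the AML12 arrays. It fell, by at least 1.06-fold (-0.60 ± 0.13, limma adjusted p = 0.00442), although 1 AML12 array lay within the v-erbA range. Usp18, which removes ISG15 from proteins and dampens receptor signalling, Mx2, a dynamin-like GTPase, and Rsad2, viperin, did not pass the test, with log2 differences of -0.27 ± 0.13, 0.05 ± 0.15 and 0.13 ± 0.11 (limma adjusted p = 0.1, 0.806 and 0.339).

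**Figure D2:**
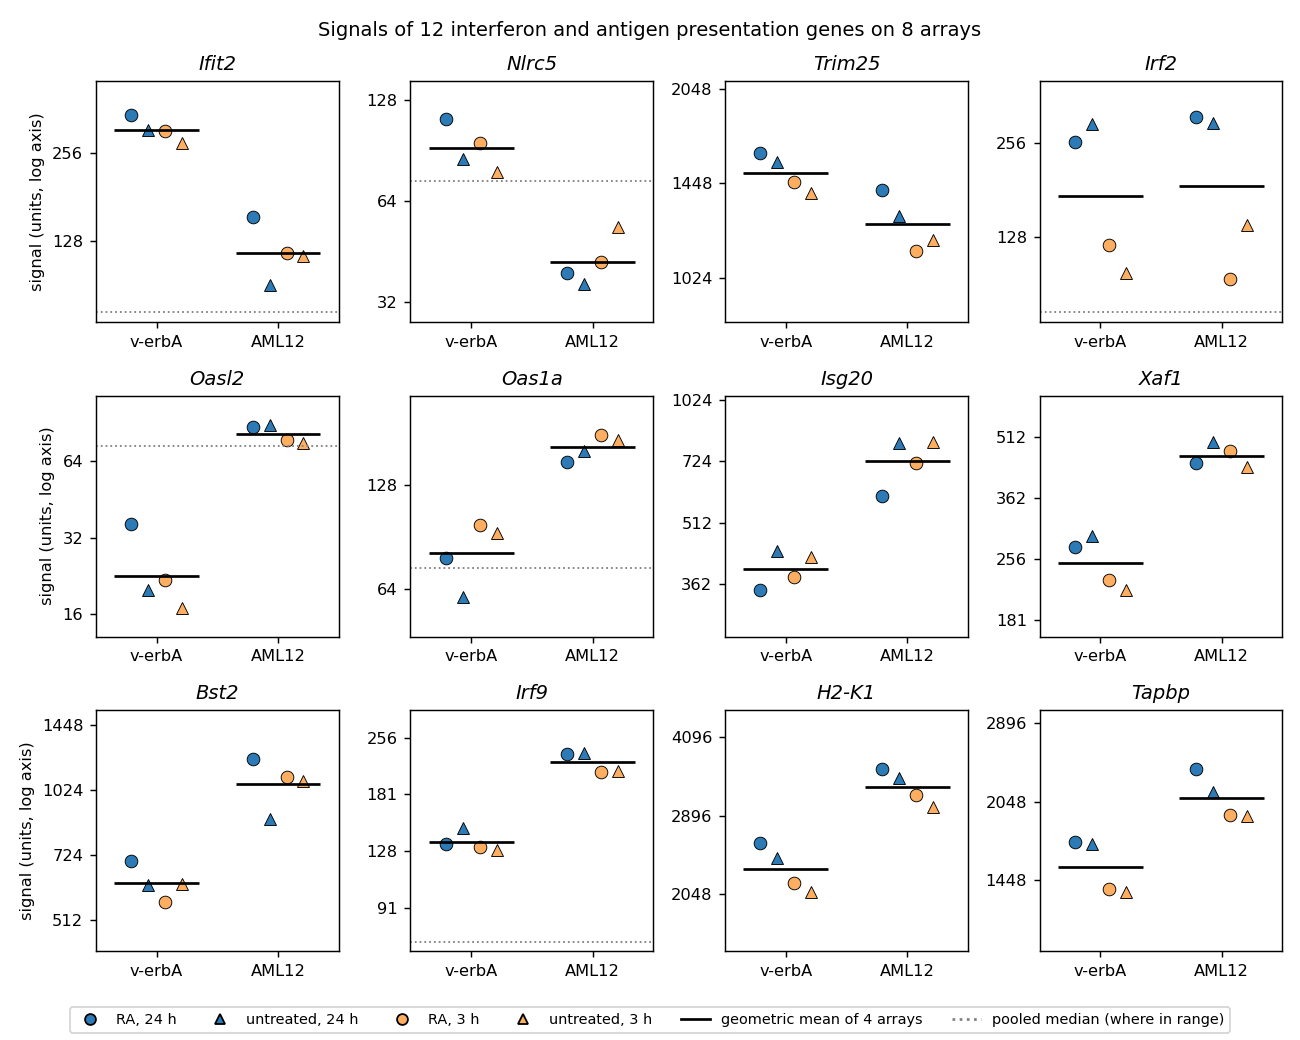
Signal in units on a log axis for 12 members on the 8 arrays, with v-erbA cells left of AML12 cells, 24 h in blue and 3 h in orange, circles for RA and triangles for untreated cells; the black line is the geometric mean of 4 arrays and the dotted line the pooled median of 73.5 units, drawn where it is in range. Ifit2 and Nlrc5 lie higher in v-erbA cells, Oasl2, Oas1a, Isg20, Xaf1, Bst2, Irf9, H2-K1 and Tapbp lie lower, and Irf2 separates by time.

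The RNA sensors were split. Ifih1, which encodes the double-stranded RNA sensor MDA5, had 220.4, 251, 209 and 175 units on the v-erbA arrays, against 372, 368, 322 and 326 units on the AML12 arrays. It was lower on every v-erbA array (-0.66 ± 0.07, 1.58-fold, limma adjusted p = 7.70e-05). Trim25, the ubiquitin ligase that activates the sensor RIG-I, had 1622, 1568, 1453 and 1397 units on the v-erbA arrays, against 1412, 1287, 1132 and 1175 units on the AML12 arrays. It rose by 1.21-fold (0.27 ± 0.04, limma adjusted p = 0.000614), and the untreated v-erbA array at 3 h lay within the AML12 range. RIG-I itself, listed under its older symbol Ddx58, had 601, 519, 489 and 469 units on the v-erbA arrays, against 518, 503, 465 and 471 units on the AML12 arrays. The lines overlapped and it did not pass (0.08 ± 0.05, limma adjusted p = 0.254). The remaining sensor, Dhx58, was dim on every array.

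Among the transcription factors 1 of 6 fell, 1 rose and 4 did not pass. Irf9, the DNA-binding subunit of the factor that type I interferon activates, had 134, 147, 131 and 129 units on the v-erbA arrays, against 232, 233, 208 and 209 units on the AML12 arrays. The lines did not overlap, and the mean was 1.55-fold lower (-0.63 ± 0.06, limma adjusted p = 4.67e-05). Stat2, its partner, overlapped between the lines and differed by -0.02 ± 0.09 (limma adjusted p = 0.85). Nlrc5, the transactivator of MHC class I genes, had 112, 85.5, 95.7 and 78.3 units on the v-erbA arrays, against 39.2, 36.3, 42.1 and 53.6 units on the AML12 arrays. Its AML12 arrays were all under the pooled median, so it rose by at least 1.20-fold (0.85 ± 0.13, limma adjusted p = 0.000617). Irf7, the factor that amplifies interferon production, had 121, 96.1, 101 and 103 units on the v-erbA arrays, against 135, 139.7, 102 and 79.6 units on the AML12 arrays, with overlap. Irf1, Irf2 and Irf7 differed by 0.09 ± 0.05, -0.10 ± 0.11 and -0.07 ± 0.12 on the log2 scale and did not pass (limma adjusted p = 0.134, 0.476 and 0.629).

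All 6 antigen presentation members fell, with a median of -0.43 on the log2 scale, although Nlrc5 rose. The heavy chain gene H2-K1 had 2564, 2404, 2145 and 2062 units on the v-erbA arrays, against 3555, 3423, 3172 and 3009 units on the AML12 arrays. The ranges did not overlap, and the mean was 1.43-fold lower (-0.52 ± 0.03, limma adjusted p = 2.33e-06). H2-D1, the other classical heavy chain measured, had 2715, 2646, 2236 and 2232 units on the v-erbA arrays, against 3016, 3173, 2994 and 2875 units on the AML12 arrays. Tapasin, Tapbp, had 1714, 1694, 1391 and 1371 units on the v-erbA arrays, against 2361, 2135, 1932 and 1918 units on the AML12 arrays. Neither overlapped between the lines, and they fell by 1.23-fold and 1.35-fold (limma adjusted p = 0.000495 and 2.56e-05). Tap2, a subunit of the peptide transporter, had 98.5, 68.4, 63.3 and 56.8 units on the v-erbA arrays, against 155, 104, 111 and 110.3 units on the AML12 arrays and fell by 1.53-fold (limma -0.62 ± 0.11, adjusted p = 0.00116), with no overlap. Its partner Tap1 had 37.5, 56.2, 60.2 and 66.9 units on the v-erbA arrays, against 78.4, 73.9, 77.1 and 90.6 units on the AML12 arrays. It fell by at least 1.07-fold (-0.42 ± 0.11, limma adjusted p = 0.0108), since its v-erbA arrays were all under the pooled median. B2m, the invariant light chain, had 8829, 8852, 8545 and 8191 units on the v-erbA arrays, against 9181, 9007, 9411 and 9005 units on the AML12 arrays. Its fall, -0.09 ± 0.03 or 1.06-fold, had a limma adjusted p of 0.0193 and did not pass without the v-erbA RA array at 24 h or any 1 of the 4 arrays at 3 h (adjusted p between 0.0514 and 0.0818). Class I heavy chains are similar in sequence, and most of their probe sets are of a type that can read related transcripts, so H2-K1 and H2-D1 signals are uncertain as separate values.

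Probe sets other than the brightest gave a check. For the 24 members called between the lines there were 16 further probe sets that were not dim. Of these, 14 had the direction of the brightest and 0 reached 2-fold. The exceptions were the Xaf1 probe set above and 1 of H2-D1, at 0.17. The 16 belonged to B2m, Gbp2, H2-D1, H2-K1, Ifi35, Tap1, Tapbp, Trim25 and Xaf1, so the other called members were not checked in this way. For H2-K1 the 3 others differed by -0.25, -0.69 and -0.34, and for Ifi35 the 2 others by -0.55 and -0.35. Trim25 had 0.35 and 0.15. B2m had -0.005 on its second probe set, which is counted among the 14 although the lines scarcely differed there. Rsad2, not called by its brightest probe set, differed by -0.75 on another. Between 24 h and 3 h a second probe set of each of Tap1, H2-D1 and Rsad2 differed by 1.40, 1.37 and 1.11, against -0.22, 0.17 and 0.16 on the brightest.

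**Figure D3:**
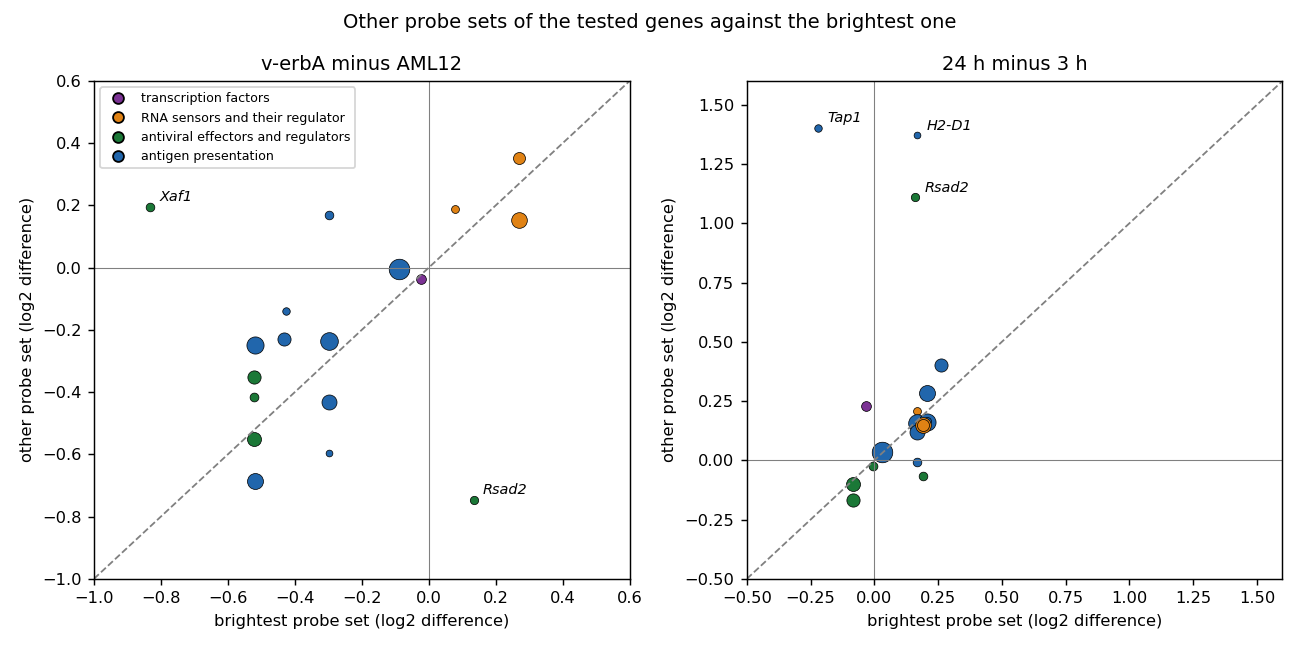
Difference in log2 units of every further probe set that was not dim against that of the brightest probe set of the same tested member, for v-erbA minus AML12 (left) and 24 h minus 3 h (right). Circles grow with signal, colours give the role and the dashed line marks equal values. Of the 16 of a called member in the left panel, 14 had the same direction as the brightest, while Xaf1 had -0.83 on the brightest and 0.20 on the other; in the right panel Tap1, H2-D1 and Rsad2 stand above 1 on a second probe set.

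The line difference was present at both times. At 24 h 18 members were lower and 4 higher by limma, against 21.5% and 22.2% of all genes, and at 3 h 18 were lower and 4 higher, against 21.1% and 16.2%. No member passed the test of a difference in the v-erbA effect between the times, which 0.0999% of genes passed. An unadjusted p under 0.05 was found for 9.04% of all genes and for 3 members, H2-D1 (0.18 ± 0.06), Irf7 (-0.45 ± 0.19) and B2m (0.10 ± 0.04), with limma adjusted p of 0.48, 0.543 and 0.55. A measure of the share of each member's variance on the log2 scale gave a median of 70.5% to line over the 32 members, 11.2% to time and 1.77% to RA. Over all genes tested the medians were 42.3%, 17.8% and 2.33%. Line was the largest share in 25 members, with 95.5% for Irf9, time in 4, with 94.1% for Irf2, and RA in 2, with 65.5% for Stat2. For the remaining member, Rsad2, it was the remaining interactions. As no condition was replicated, shares of interactions cannot be told apart from scatter between arrays. The members with each largest share were not set against such counts over all genes, so these counts have no background.

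**Figure D4:**
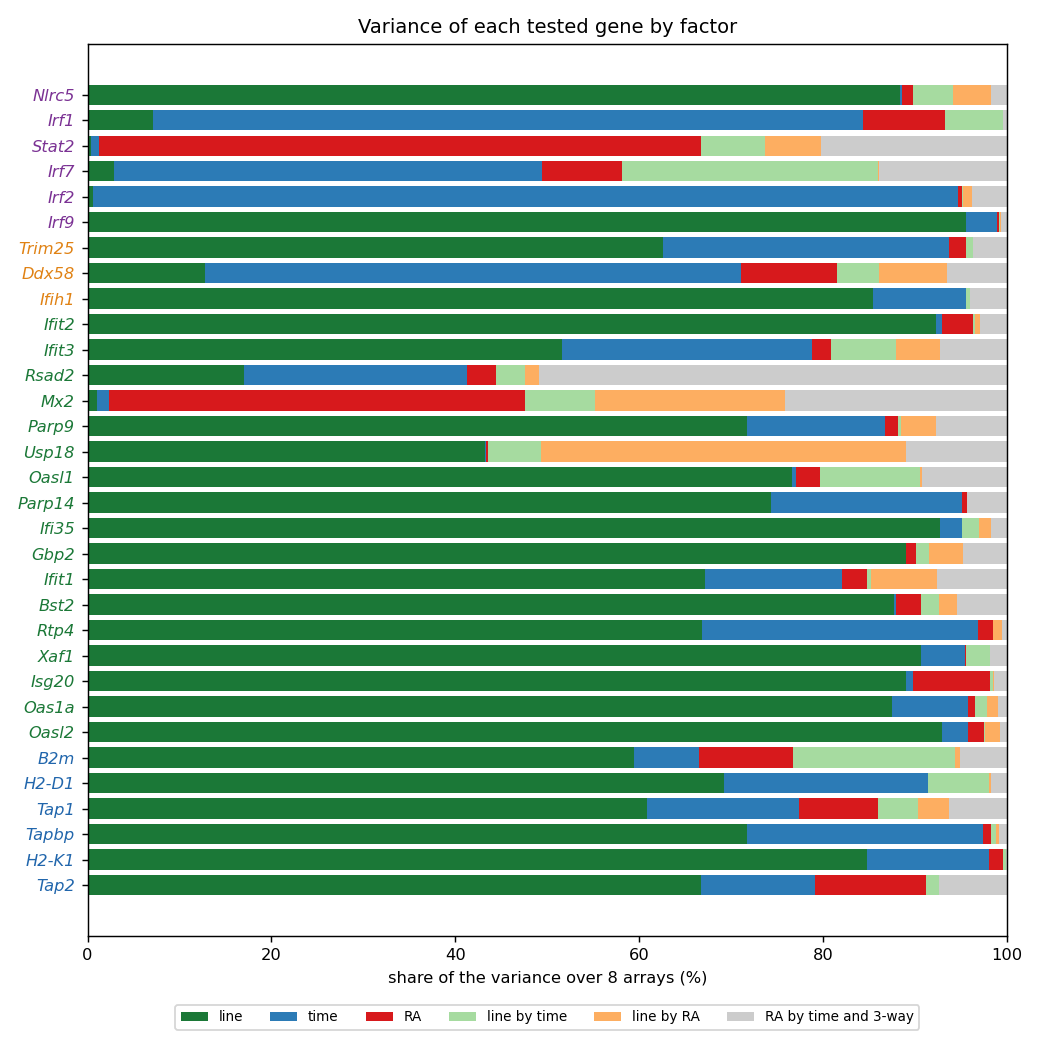
Percent of each tested member's variance over the 8 arrays, on the log2 scale, that falls to line, time, RA, the interactions of line with time and with RA, and the remaining interactions. Shares of interactions also hold the scatter between unreplicated arrays. Line was the largest share in 25 of 32 members, a count not made over all genes, while time was the largest in 4 and took 94.1% for Irf2.

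Between 24 h and 3 h, 10 members rose, 1 fell and 21 did not pass by limma, against 19.5% of genes that rose and 15.2% that fell. The median over the members was 0.16 on the log2 scale, against 0.03 over all genes. Of the 10 that rose 6 were among those lower in v-erbA cells, as were 20 of all 32 tested members. Irf2, a factor known to oppose Irf1 at interferon promoters, had 258, 296, 312 and 298 units at 24 h, against 121, 97.9, 93.8 and 139.6 units at 3 h (v-erbA RA, v-erbA untreated, AML12 RA and AML12 untreated in each). All 4 arrays at 24 h exceeded all 4 at 3 h, by 2.36-fold in the mean (1.24 ± 0.11, limma adjusted p = 2.79e-05). Irf2 had 1 probe set, so no other could check this rise. Over all genes called for time at 2-fold or more, 155 further probe sets were not dim. Of these, 98 had the direction of the brightest and 14 also reached 2-fold. For the line difference it was 203 and 103 of 220. The 11 members called for time, whatever the size of their change, had 11 further probe sets that were not dim. These belonged to H2-D1, H2-K1, Trim25, Tapbp and Ddx58 only. Of these probe sets, 10 had the direction of the brightest and 1 reached 2-fold. Irf1 had 1130.3, 1030.5, 973 and 923 units at 24 h, against 839, 786, 846 and 774 units at 3 h. It also showed no overlap and rose by 1.24-fold (limma adjusted p = 0.00123). Rtp4 rose by 1.42-fold (limma adjusted p = 0.00044), with overlap between the times. Tapbp (0.26 ± 0.04), Parp14 (0.26 ± 0.06), Ifih1 (0.23 ± 0.07), H2-K1 (0.21 ± 0.03), Trim25 (0.19 ± 0.04), H2-D1 (0.17 ± 0.04) and Ddx58 (0.17 ± 0.05) rose by smaller amounts on the log2 scale. Oas1a fell, at -0.27 ± 0.09 (limma adjusted p = 0.0481). Signals at the times did not overlap for Irf1, Irf2 and Ddx58 only, all higher at 24 h, against 10.1% of genes. Leaving out 1 array ended some of these calls. Ddx58 was lost without any 1 v-erbA array, the untreated AML12 array at 24 h or the AML12 RA array at 3 h (limma adjusted p between 0.0571 and 0.150), and H2-D1 without any 1 v-erbA array (0.0621 to 0.0710). Ifih1 was kept only without the v-erbA RA array at 3 h and otherwise had adjusted p between 0.0501 and 0.124, and Oas1a was kept only without the untreated AML12 array at 24 h and otherwise had 0.0738 to 0.139. Parp14 was lost without either untreated v-erbA array or the AML12 RA array at 3 h (adjusted p up to 0.0566). The number called was 7 without the untreated v-erbA array at 24 h, the untreated v-erbA array at 3 h, or the RA-treated v-erbA array at 24 h. The labels do not say whether arrays of 1 time were processed together, so time and processing cannot be told apart. Mx1, the dynamin-like GTPase and the untested member with the widest range, had 20.3, 15.5, 24.1 and 21.8 units at 24 h, against 71.0, 77.1, 45.0 and 60.5 units at 3 h, all but 1 of them under the pooled median.

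No member passed the test of the RA effect, which 1.17% of genes passed, and 5 of the 32 had an unadjusted p under 0.05, as did 10.3% of all genes. The median RA difference over the members was 0.03, against 0.00 over all genes, and the members' values lay between -0.32 and 0.26 on the log2 scale. Isg20 had the smallest p, with RA arrays lower than untreated arrays in all 4 pairs, a difference of -0.26 ± 0.06 and a limma adjusted p of 0.1. It passed, with a limma adjusted p of 0.0166, in the model that also holds all interactions between pairs of factors. That model holds nearly as many terms as there are arrays, so its p rests mostly on variance that limma borrows from other genes. Stat2 had 149, 185, 150.3 and 165 units on the RA arrays, against 196, 194, 233 and 194 units on the untreated arrays (v-erbA at 24 h, v-erbA at 3 h, AML12 at 24 h and AML12 at 3 h in each). It was the 1 member whose RA and untreated arrays did not overlap, against 1.09% of genes, with -0.30 ± 0.09 (limma adjusted p = 0.252). Tap2, next by p, differed by 0.26 ± 0.11 (limma adjusted p = 0.45). Within v-erbA cells 0% of genes and 0 members passed limma's test of the RA effect, while 2 members and 3.33% of genes had an unadjusted p under 0.05. Within AML12 cells 0.308% of genes and 0 members passed, and 3 members and 9.11% of genes had an unadjusted p under 0.05.

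The comparison named in the series' design, the RA response of v-erbA cells minus that of AML12 cells, was passed by 0 members and 0% of genes by limma. At an unadjusted p under 0.05 there were 201 genes (1.67%) and 1 member, Usp18 (0.52 ± 0.21). Next by p were Mx2 (-0.43 ± 0.28) and Ifit1 (0.39 ± 0.25), and all 3 had a limma adjusted p of 1. Usp18 had 98.0, 86.2, 99.5 and 70.0 units on the v-erbA arrays, against 102, 110.4, 97.4 and 134 units on the AML12 arrays. In v-erbA cells its RA arrays were the higher ones at both times, and in AML12 cells they were the lower ones. No member passed for a difference of the RA effect between the times, which 0.0166% of genes passed, and 1 member and 7.53% of genes had an unadjusted p under 0.05. The members with the smallest p were Bst2 (0.36 ± 0.14), Tap2 (0.40 ± 0.18) and Stat2 (-0.33 ± 0.16), with limma adjusted p of 0.623, 0.662 and 0.67.

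**Figure D5:**
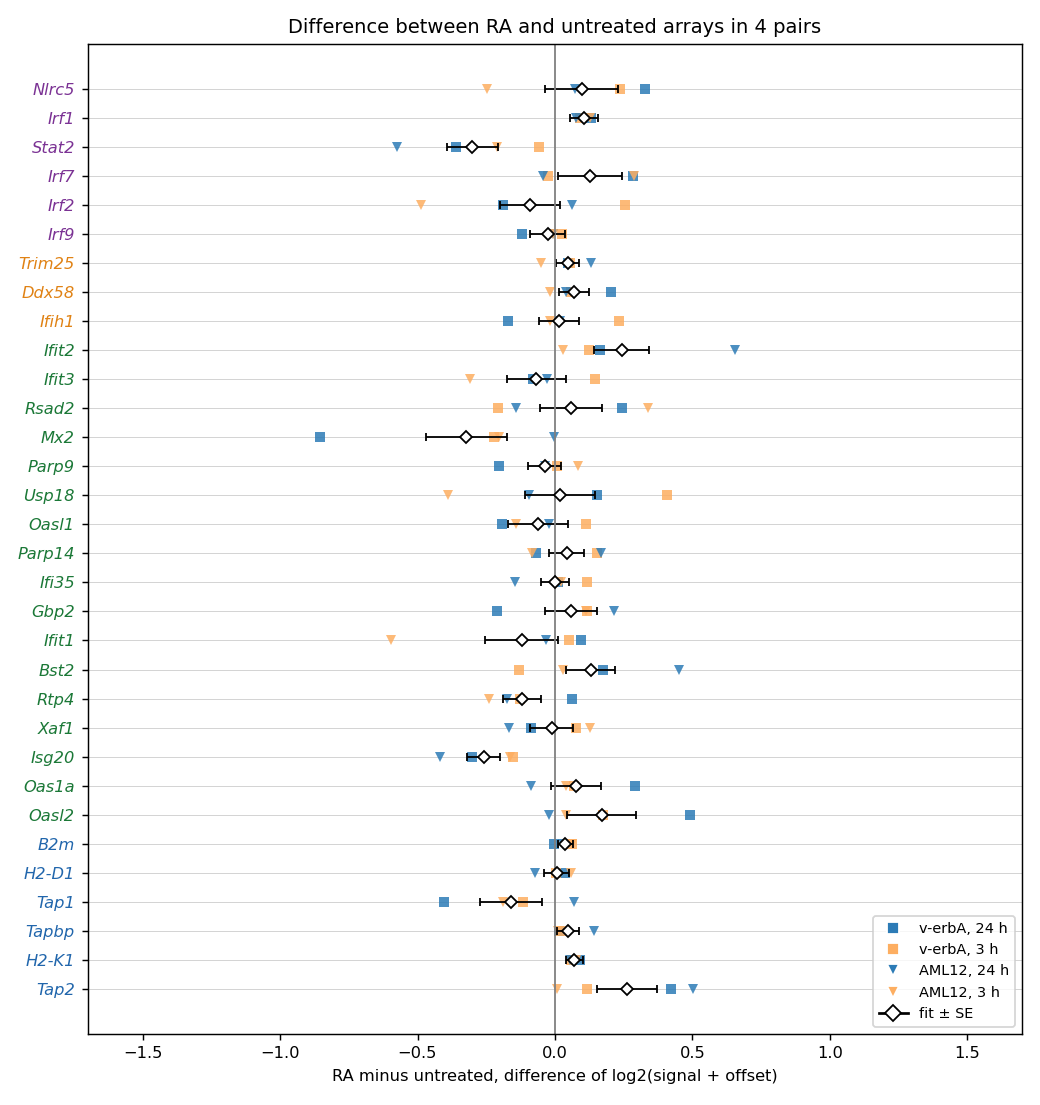
RA minus untreated difference in log2 units for each tested member in v-erbA cells (squares) and AML12 cells (triangles) at 24 h (blue) and at 3 h (orange), with the fit ± SE (diamonds). The fitted values lie between -0.32 and 0.26, and none passed the test.

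Other genes of the interferon system, in lists chosen with earlier results of these data in view, were compared between the lines in the same fit. Their median log2 differences were -0.26 for ligands and receptors, -0.17 for signalling genes, -0.25 for other interferon-stimulated genes and -0.08 for other antigen presentation genes, against 0.01 over all genes. Over all genes tested 26.9% fell and 26.5% rose, the background for the counts of each list. Of 12 ligands and receptors, 6 were bright enough to test, and 4 fell and 0 rose. Those that fell were Il10rb (-0.94 ± 0.09), a subunit of the receptors for IL-10 and type III interferon, Ifnar2 (-0.48 ± 0.05) and Ifnar1 (-0.23 ± 0.05), the type I receptor chains, and Ifnlr1 (-0.29 ± 0.09), the specific chain of the type III receptor. Of 12 signalling genes tested 5 fell, most of all the kinase Ikbke (-0.26), the adaptor Mavs (-0.26) and Ptpn2 (-0.25). Another 3 rose, Socs1 (0.51), Pias1 (0.41) and the kinase Tbk1 (0.24), while Socs3 (-0.17) did not pass. Socs1 overlapped between the lines, with 70.5 to 147 units in v-erbA cells and 55.0 to 81.8 units in AML12 cells. Of 33 other interferon-stimulated genes 18 fell and 3 rose. The largest fall was that of Ifitm3, a blocker of viral entry, at 578 ± 69.9 units in v-erbA cells and 2696 ± 143 units in AML12 cells (SD, n = 4 each), 4.56-fold lower, followed by Trim30a at 3.68-fold. Irgm1 and Ifi47, both interferon-induced GTPases, rose by 0.62 and 0.40 on the log2 scale, and Cd274, which encodes PD-L1, rose by at least 1.35-fold. Of 16 other antigen presentation genes 7 fell and 3 rose. Psmb8, an immunoproteasome subunit, fell by 2.83-fold, and the class II gene H2-Ab1, near the pooled median in AML12 cells, fell with no fold given. Cd74, the MHC class II invariant chain, and Rfx5 and Rfxap, subunits of a factor that binds class II promoters, rose by 0.82, 0.31 and 0.22 on the log2 scale. Cd74 overlapped between the lines, with 141 to 443 units in v-erbA cells and 121 to 152 units in AML12 cells. In this list the highest difference was 0.29 at 3 h, where 0 genes were called higher, and 1.34 at 24 h, where 4 were. None passed the test of a difference between the times. By limma the RA test was passed by 0 genes of these lists, and 4 of the 67 tested had an unadjusted p under 0.05, against 10.3% of all genes.

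In the RefSeq gene order of GRCm38.p6, 14 pairs of adjacent protein-coding genes had both genes in these lists and tested. Both fell in 9 pairs, both rose in 1, 1 fell and the other did not pass in 3, and neither passed in 1. No share over all adjacent pairs of tested genes is given, so these counts have no background and do not show clustering. Psmb9, Tap1, Psmb8 and Tap2 are consecutive protein-coding genes and all fell. Ifnar2, Il10rb and Ifnar1 are consecutive and all fell, while the adjoining Ifngr2 did not pass. Parp14, Dtx3l and Parp9 are consecutive and fell, as did the neighbours Oasl2 and Oasl1 and the neighbours Igtp and Irgm2. Ifit2 and Ifit3 both rose. Of the consecutive Ifitm2, Ifitm1 and Ifitm3 the middle one did not pass, and neither did Rsad2 nor its neighbour Cmpk2. Genes that lie together are not independent, and shared control was not tested.

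Markers of other cell types were set beside these results. All 6 hepatocyte markers with a probe set were above the pooled median on every array, and 3 of the 6 fell, with a summed signal of 24192 to 26537 units in v-erbA cells and 28239 to 33714 units in AML12 cells. Of 8 macrophage markers 6, Ptprc, Cd68, Lyz2, Itgam, Clec4f and Cd5l, were below the pooled median on every array, with sums over the list of 384 to 477 units in v-erbA cells and 265 to 399.8 units in AML12 cells. The 2 bright enough to test, Csf1r and Adgre1, did not pass between the lines, and Csf1r was above the pooled median on every array. Of 5 lymphocyte and dendritic markers 4 were below it everywhere (147 to 224 units in v-erbA cells and 119 to 197 units in AML12 cells), as were 3 of 5 endothelial markers (163 to 279.8 units in v-erbA cells and 183 to 233 units in AML12 cells). Of 6 stellate and fibroblast markers 3 were below it everywhere and 2 of the 3 tested rose, with sums of 286 to 455 units in v-erbA cells and 159 to 283 units in AML12 cells. Their part in the line differences was not tested.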

How the data were processed

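Signals on 8 Affymetrix arrays of v-erbA-transfected AML12 cells and AML12 cells were used. Per the labels' protocols, RNA was extracted with Trizol, cleaned on RNeasy columns and biotin-labelled. The deposited intensity values are linear signals per probe set; how they were summarized, background-corrected and scaled is not stated in the labels used here. That scaling was kept; array medians lay between 71.2 and 76.1 units. Of 45037 probe sets, 34944 named 1 gene, 932 several and 9160 none, through the platform annotation, and 1 with missing values was left out; 34740 were matched to RefSeq GRCm38.p6 and 0 symbols changed. Values were taken as log2(signal + 19.9), the offset being the 20th percentile, which understates changes of dim genes. limma 3.58.1 in R 4.3.3 fitted line, treatment and time additively (4 residual degrees of freedom), or with 1 interaction (3), with a mean-variance trend and Benjamini-Hochberg adjustment; the fits were tested on simulated data. Folds are bounds, against the pooled median, where the lower group was wholly dim. All members were named, with array values for those called at a log2 difference of at least 0.5 or in another comparison, and up to 2 rises and 2 falls of each further list; genes named for their position or to complete a count were chosen after their values were seen. Alternatives covered the offset, filter, scaling, trend, probe sets, interactions and each array left out. Members and lists were chosen with earlier results of these data known. The number of arrays limits the precision.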

Additional observations from a re-analysis of the deposited data

How the results depend on the processing

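The 24 calls of the v-erbA effect were 19 to 25 under every alternative run, and 21 to 24 with each array left out in turn. Using the arrays of 3 h only, or of 24 h only, chosen after seeing the data, gave 23 and 20. Of 499 member values under the alternatives 478 kept their call, 21 lost it and 0 turned direction, and 16 of the 24 members were called under every one. B2m, Oasl1, Ifit3, Tap1 and Parp9 lost the call under at least 1, and Ifit1, Oasl2, Nlrc5, Oasl1 and Tap1 were not tested where the mean had to exceed the pooled median. B2m lost it under 9 of its alternatives, among them quantile normalization (-0.06, limma adjusted p = 0.0768), no mean-variance trend (-0.09, adjusted p = 0.137) and the mean of its probe sets (-0.05, adjusted p = 0.173), and Tap1 with the mean of its probe sets (-0.22, adjusted p = 0.0800). The RA effect called 1 member with all interactions between pairs of factors, a model with nearly as many terms as arrays, and 0 under the other alternatives. The 11 calls of the time effect ranged from 7 to 11 with each array left out; of 198 values 158 kept their call, 40 lost it and 0 turned, and 5 of the 11 were called under every alternative. The members that were not were Ddx58, Oas1a, Ifih1, H2-D1, Parp14 and Rtp4. The 3 tests of an interaction (v-erbA with RA, v-erbA with time, RA with time) called 0 members under every alternative run. A fit of the v-erbA effect with the matched treatment and time pairs as a block gave 24 calls. Signals near the pooled median limit Oasl1, Oasl2, Ifit1, Tap1 and Nlrc5, whose folds are bounds or are not given.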
